A study of Homo sapiens with 3 samples.

Results

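The genes described here are 10 genes of the AP-1 transcription factor and of the immediate early response, FOS, FOSB, FOSL1, FOSL2, JUN, JUNB, JUND, ATF3, EGR1 and IER3. They were taken by name from the transcript names of the deposited tables, on chromosomes only, and are 10 of 60506 genes listed. Their RNA was measured in HaCaT cells, an immortalized line of human keratinocytes. Cells were transfected with SRSF5 siRNA No.1, with SRSF5 siRNA No.2 or with a control siRNA, each at 10 nM with a lipid reagent. SRSF5 belongs to the SR proteins, which bind RNA and take part in splice site choice. The labels give the control as wild type and both others as SRSF5 knockdown, and give no time after transfection. Each transfection gave 1 library. The knockdown group thus has n = 2, 1 library for either siRNA, and the control has no replicate. Both siRNAs are compared with the same control library. In a bulk library, fewer cells of a kind and less RNA per cell cannot be told apart.

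AP-1 is a dimer of bZIP proteins. The JUN proteins (JUN, JUNB, JUND) pair with each other or with the FOS proteins (FOS, FOSB, FOSL1, FOSL2), whereas FOS proteins need a partner to bind DNA. Many of these genes are switched on within minutes by growth factors, stress or cytokines, and their mRNAs are short-lived, while JUND and FOSL1 can also be held at steady levels. In epidermal keratinocytes AP-1 acts on genes of proliferation, of matrix breakdown and of the cornified envelope.

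The values are FPKM per transcript, fragment counts scaled by transcript length and library total. A base was counted for every transcript it overlaps, so isoforms of a gene share reads. The summed FPKM of a gene therefore grows with the number of listed transcripts, and it is used for ratios within a gene. Levels of different genes are compared by the FPKM of the highest protein-coding transcript. Each log2 ratio compares the sums after 1 FPKM was added to both, with the siRNA library on top, and a gene was called at 1.5-fold or more on that scale. Folds and percentages of the control use FPKM with nothing added. Counting intervals are exact 95% intervals on the log2 ratio of the transcript of a gene that held most read equivalents (100 bases each), with nothing added. No more than counting error is in them, as reads copied by PCR are not separate molecules.

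SRSF5 itself was lower in both knockdown libraries. Its summed FPKM was 44.3 with siRNA 1 and 18.7 with siRNA 2, against 94.1 in the control, log2 ratios of -1.07 and -2.27. Summed over all genes, the largest transcript of each held 17706024 read equivalents with siRNA 1, 15862003 with siRNA 2 and 18321699 in the control. The mitochondrial share of base overlaps was 14.8% with siRNA 1, 10.0% with siRNA 2 and 13.7% in the control. All 8 keratinocyte markers were measured, and their summed FPKM was 5704, 9577 and 4677 in the same order. Of 9 fibroblast markers 1 passed the filter, COL1A1, and the summed FPKM of the list was 5.64, 6.45 and 2.98. Of 7 melanocyte markers 1 passed, MITF, with MLANA, TYR, TYRP1 and SOX10 listed at 0 and a sum of 7.70, 5.84 and 4.51 FPKM. Of 7 immune markers 1 passed, CD68, with PTPRC below the filter and a sum of 20.5, 18.8 and 29.7 FPKM. The keratinocyte sum was thus highest with siRNA 2, as were 7 of the 10 genes described here. It was carried by KRT5, KRT14 and KRT17, and such a sum gives more weight to genes with more listed transcripts. DSP (345, 593 and 349), TP63 (29.4, 64.2 and 28.1) and PERP (82.1, 91.0 and 68.0) were also highest with siRNA 2. In contrast, KRT6A (479.9, 469.6 and 594) was highest in the control and SFN (447, 361 and 402) was lowest with siRNA 2. The part of these markers in the results was not tested.

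The promoters of 4 of the genes are shown because 3 of them, FOSL2, JUNB and FOS, were at least 1.5-fold above the control with siRNA 2, and the remaining one, EGR1, was lower with both siRNAs. Each is the RefSeq sequence (GRCh38.p14) of 250 bases before and 50 after the start site, 5′ to 3′ on the strand of the gene. The table held a window for 8 of the 10 genes. Capitals mark matches, on either strand, to the AP-1 site TGACTCA, to the cyclic AMP response element TGACGTCA, to its variant TGACATCA, to TGACG, the core of that element, and to the CArG box bound by serum response factor. TGACG lies within TGACGTCA, so these matches can overlap.
FOSL2 (chr2:28392608-28392907, plus strand): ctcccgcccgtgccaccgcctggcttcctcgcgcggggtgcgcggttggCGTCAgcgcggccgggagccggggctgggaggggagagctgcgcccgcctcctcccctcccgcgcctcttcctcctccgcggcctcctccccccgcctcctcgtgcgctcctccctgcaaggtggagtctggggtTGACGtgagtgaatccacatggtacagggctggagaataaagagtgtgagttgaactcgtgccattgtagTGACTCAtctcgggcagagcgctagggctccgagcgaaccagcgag
JUNB (chr19:12791236-12791535, plus strand): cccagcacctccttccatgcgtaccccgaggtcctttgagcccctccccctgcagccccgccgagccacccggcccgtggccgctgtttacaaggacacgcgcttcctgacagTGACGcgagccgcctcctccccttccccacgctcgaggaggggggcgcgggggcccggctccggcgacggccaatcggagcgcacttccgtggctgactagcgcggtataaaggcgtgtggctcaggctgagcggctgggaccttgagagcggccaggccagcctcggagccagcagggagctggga
FOS (chr14:75278578-75278877, plus strand): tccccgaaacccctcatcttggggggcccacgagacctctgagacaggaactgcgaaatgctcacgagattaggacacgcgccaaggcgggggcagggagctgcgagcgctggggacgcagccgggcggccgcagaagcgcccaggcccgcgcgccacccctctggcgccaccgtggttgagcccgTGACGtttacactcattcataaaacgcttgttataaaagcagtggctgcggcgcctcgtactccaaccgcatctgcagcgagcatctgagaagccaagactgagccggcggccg
EGR1 (chr5:138465229-138465528, plus strand): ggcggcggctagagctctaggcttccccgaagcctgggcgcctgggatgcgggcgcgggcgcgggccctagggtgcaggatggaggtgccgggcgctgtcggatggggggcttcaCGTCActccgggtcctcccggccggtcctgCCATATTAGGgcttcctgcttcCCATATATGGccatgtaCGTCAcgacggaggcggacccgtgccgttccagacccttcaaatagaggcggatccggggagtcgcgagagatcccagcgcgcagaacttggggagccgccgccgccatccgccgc

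In the FOSL2 window TGACTCA begins at base 5 from the start site, and TGACG matches lie at -201 and -66. Of 35116 promoter windows of the same length, 4.95% held TGACTCA and 24.6% held TGACG. The JUNB and FOS windows held 1 TGACG match each, at -137 and -64, and no CArG box. Sites more than 250 bases before the start site lie outside the windows and were not read. The EGR1 window held 2 CArG boxes, at -105 and -83, where 1.29% of all windows held at least 1, and TGACG matches at -135 and -66. Among the windows not printed, JUN and 1 of 2 windows of ATF3 held TGACATCA, at -67 and -123, which 2.61% of windows held, and JUND held TGACGTCA at -200, which 1.85% held. TGACG was also held by the windows of FOSB (-60), JUN (-123) and JUND (-200, -197 and -86), and not by those of ATF3. All these matches describe the letters only.

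With both siRNAs together, 0 of the 10 genes passed 1.5-fold on the same side of the control, where 4.66% of the 13923 genes tested did (3.19% higher and 1.47% lower). All 10 passed the filter of a mean summed FPKM of at least 1. With siRNA 2 alone 3 were at least 1.5-fold higher than the control, FOSL2, JUNB and FOS, where 13.2% of all genes were, and 0 were lower, where 10.1% were (either way 3 of 10, against 23.3%). With siRNA 1 alone 1 was at least 1.5-fold lower, FOSL1, where 5.47% of all genes were, and 0 were higher, where 6.18% were (either way 1 of 10, against 11.7%). By any amount 5 were higher with siRNA 1, where 46.6% of all genes were, and 8 with siRNA 2, where 54.0% were. The genes higher in both by any amount were FOSB, FOSL2, JUN, JUNB and JUND, 5 of 10, where 30.1% of all genes were. Lower in both were EGR1 and FOSL1, 2 of 10, where 29.4% of all genes were. The median log2 ratio of the 10 genes was -0.02 with siRNA 1 and 0.25 with siRNA 2, against -0.02 and 0.05 over all genes tested. In limma, with Benjamini-Hochberg adjustment over all genes, 0 of the 10 passed, and 0 had an unadjusted p below 0.05. Over all genes limma called 0 (0.0%), with 416 (2.99%) at an unadjusted p below 0.05, and a robust limma fit called 3, none of them among the 10. The adjusted limma p was 1.00 for each of the 10 genes, so the differences given next are values and not calls of this test. Its residual spread is that between siRNA 1 and siRNA 2 (1 degree of freedom), and it takes the single control to be as variable as they are.

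**Figure D1:**
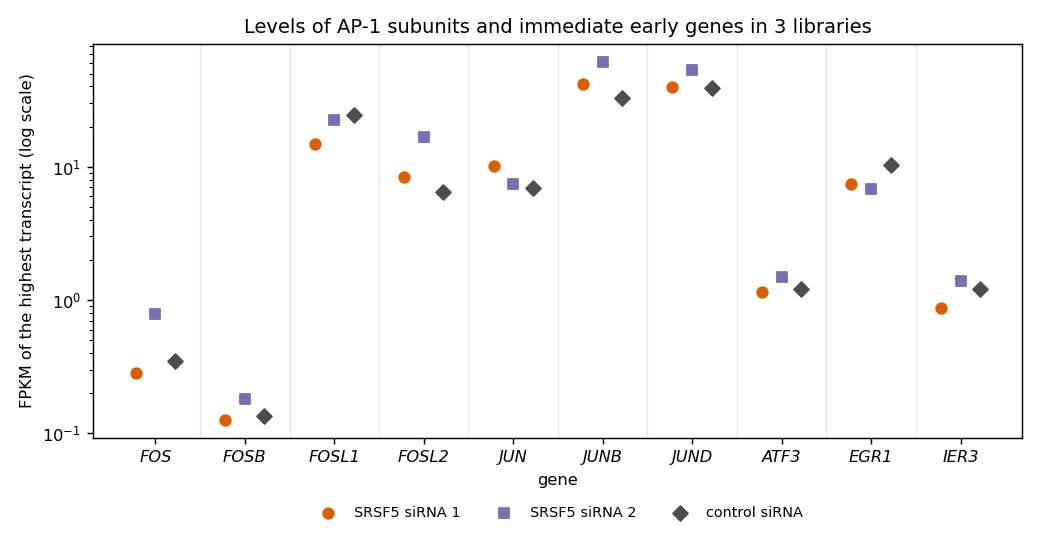
FPKM of the highest transcript of each gene (y axis, log scale) in the SRSF5 siRNA 1, SRSF5 siRNA 2 and control siRNA libraries, 1 point per library. JUNB, JUND and FOSL1 sit highest and FOSB lowest in the 3 libraries, and FOSL2 is apart with siRNA 2 at 16.8 FPKM against 6.41 FPKM in the control. The FOSL2 points are those of the noncoding FOSL2-204. The highest protein-coding FOSL2 transcript, FOSL2-203, was at 9.43 FPKM with siRNA 2 and 3.76 FPKM in the control.

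In the control the levels ran from 0.119 FPKM for FOSB to 39.0 FPKM for JUND. By the highest protein-coding transcript, the order with siRNA 1 was JUNB (41.7 FPKM), JUND (39.6), FOSL1 (14.8), JUN (10.2), EGR1 (7.47), FOSL2 (4.77), ATF3 (1.15), IER3 (0.866), FOS (0.285) and FOSB (0.118). With siRNA 2 it was JUNB (61.1 FPKM), JUND (52.9), FOSL1 (22.4), FOSL2 (9.43), JUN (7.43), EGR1 (6.83), ATF3 (1.5), IER3 (1.39), FOS (0.784) and FOSB (0.180). In the control it was JUND (39.0 FPKM), JUNB (32.7), FOSL1 (24.4), EGR1 (10.3), JUN (6.90), FOSL2 (3.76), IER3 (1.21), ATF3 (1.21), FOS (0.351) and FOSB (0.119). FOSL2 stood above JUN and EGR1 with siRNA 2 and below both in the control, and JUN stood above EGR1 with either siRNA and below it in the control. Intervals of neighbours overlapped for JUNB and JUND with siRNA 1, for JUN and EGR1 with siRNA 2, and for ATF3, IER3, FOS and FOSB along the lower end in every library. The place of JUND rests on JUND-202, a listed transcript of 500 bases inside the gene. By its full-length transcript JUND-201, JUND was at 24.8, 33.8 and 24.4 FPKM with siRNA 1, siRNA 2 and in the control, below JUNB in each library. The place and the wide interval of FOS rest on FOS-210, of 249 bases, with 3, 8.06 and 3.9 read equivalents. By its full-length transcript FOS-201, FOS was lower, at 0.147, 0.379 and 0.222 FPKM. IER3 is placed by its copy on chromosome 6, and its copies on alternate scaffolds had higher values in every library.

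The JUN family genes were higher than the control in both siRNA libraries, past 1.5-fold only for JUNB with siRNA 2, and for JUND with siRNA 1 and JUN with siRNA 2 within counting error. JUNB, on chromosome 19 (12791486 to 12793315, ENSG00000171223.6, plus strand), encodes a JUN protein that can hold back JUN activity and takes part in epidermal homeostasis. Its 1 transcript was at 41.7 FPKM with siRNA 1 and 61.1 FPKM with siRNA 2, against 32.7 FPKM in the control. JUNB was thus lowest in the control and highest with siRNA 2, at 1.28-fold and 1.87-fold the control. On the log2 scale the ratios were 0.34 and 0.88, a mean of 0.61 ± 0.38 (SD, n = 2), with a limma standard error of 0.40. It held 3224, 4617 and 2666 read equivalents, and its counting intervals were 0.28 to 0.43 with siRNA 1 and 0.83 to 0.97 with siRNA 2, so the siRNA libraries lay apart from the control and from each other by more than counting error.

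JUN, the founding member of the family, had another order. This gene without introns (chromosome 1, 58780788 to 58784327, ENSG00000177606.6, minus strand) was at 10.2 FPKM with siRNA 1 and 7.43 FPKM with siRNA 2, against 6.90 FPKM in the control. It was highest with siRNA 1, the library in which FOSL1 was lowest. The log2 ratios were 0.50 and 0.09, with counting intervals of 0.44 to 0.67 and -0.02 to 0.23. JUN was the gene of the 10 with the largest siRNA 1 ratio above the control, and it stayed short of the 1.5-fold rule, which lies at 0.585 on this scale.

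JUND, a JUN protein often linked to slower growth, is also a gene without introns in its long form (chromosome 19, 18279760 to 18281622, ENSG00000130522.5, minus strand). Its summed FPKM was 64.4 with siRNA 1 and 86.7 with siRNA 2, against 63.4 in the control. The siRNA 1 library and the control hardly differed (log2 ratio 0.02, counting interval -0.07 to 0.11), and the siRNA 2 library was higher (0.44, counting interval 0.39 to 0.56). As the gene of the 10 with the highest FPKM of a transcript in the control, JUND was used to find genes of like pattern. The nearest pairs of log2 ratios over the 3 libraries were those of ZNF784 (distance 0.0041), FOXN2 (0.0072) and FRMD4B (0.0078), but 339 genes lay within 0.1 of JUND, so with 3 libraries this likeness is weak.

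Within the JUN family the shares differed between libraries. Of the family total by the highest protein-coding transcript (91.4, 121 and 78.6 FPKM with siRNA 1, siRNA 2 and in the control), JUNB made up 45.6% with siRNA 1, 50.3% with siRNA 2 and 41.6% in the control. JUND made up 43.3%, 43.5% and 49.7% in the same order. JUN made up 11.1%, 6.12% and 8.78%. These shares rest on the 500-base JUND-202. By the full-length JUND-201 (24.8, 33.8 and 24.4 FPKM) the JUND share would be smaller. JUNB (41.7, 61.1 and 32.7 FPKM) would then be the largest of the family in each library, the control included. The JUNB to JUN ratio of FPKM was 4.10 with siRNA 1 and 8.23 with siRNA 2, against 4.74 in the control.

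**Figure D2:**
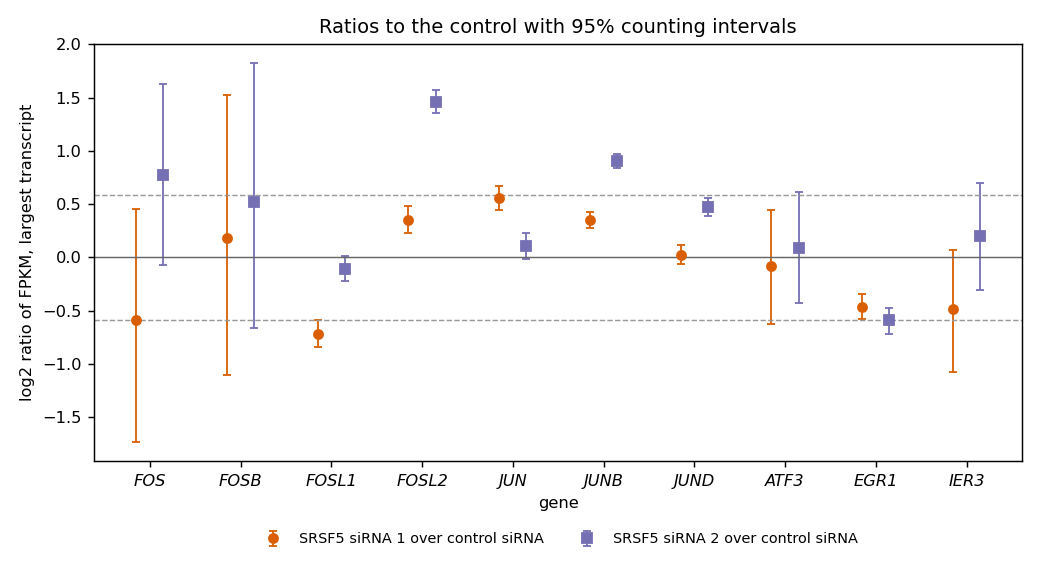
Log2 ratio of FPKM (y axis) of the largest transcript of each gene, SRSF5 siRNA 1 and SRSF5 siRNA 2 over the control siRNA library, with exact 95% counting intervals as bars and dashed lines at 1.5-fold. FOSL2 with siRNA 2 (1.46) lies farthest above 0 and FOSL1 with siRNA 1 (-0.72) farthest below, and the intervals of FOS, FOSB, ATF3 and IER3 all include 0.

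The FOS family was led by FOSL1 in every library. With both siRNAs FOSL1 lay below the control and FOSL2 above it, for FOSL1 with siRNA 2 within counting error. FOSL1, which encodes FRA1, a FOS protein that lacks the transactivation domain of FOS, lies on chromosome 11 (65892049 to 65900573, ENSG00000175592.8, minus strand). Its summed FPKM was 64.7 with siRNA 1 and 98.0 with siRNA 2, against 106 in the control, and its highest transcript, FOSL1-203, was at 14.8, 22.4 and 24.4 FPKM. The siRNA 1 library alone stood low, at 60.9% of the control, and the siRNA 2 library was at 92.3%. Its log2 ratios were -0.71 and -0.11, a mean of -0.41 ± 0.42 (SD, n = 2), with a limma standard error of 0.40. FOSL1-201 held 773, 1152 and 1340 read equivalents, and its counting interval was -0.85 to -0.59 with siRNA 1 and -0.22 to 0.01 with siRNA 2. The 5 listed FOSL1 transcripts, all protein-coding, ranged between 59.5% and 63.3% of their control values with siRNA 1, and between 89.3% and 94.6% with siRNA 2.

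FOSL2, which encodes FRA2 and is known in epidermis for a part in differentiation, was the gene of the 10 farthest above the control (chromosome 2, 28392448 to 28417317, ENSG00000075426.12, plus strand). Its summed FPKM was 21.1 with siRNA 1 and 43.7 with siRNA 2, against 16.5 in the control, and its highest transcript, FOSL2-204, was at 8.32, 16.8 and 6.41 FPKM. FOSL2 was thus lowest in the control, 1.28-fold the control with siRNA 1 and 2.65-fold the control with siRNA 2. The log2 ratios were 0.33 and 1.35, a mean of 0.84 ± 0.72 (SD, n = 2), with a limma standard error of 0.47 and an unadjusted p of 0.098 in limma. The ratio with siRNA 2 was larger than that of 98.1% of the genes tested. FOSL2-201 held 1123, 2364 and 927 read equivalents, and its counting intervals were 0.23 to 0.48 and 1.35 to 1.57.

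The 4 FOSL2 transcripts kept close ratios. With siRNA 1 they were at 1.24-fold to 1.30-fold the control and with siRNA 2 at 2.51-fold to 2.76-fold. They include the long coding forms FOSL2-201 (6713 bases; 3.96, 8.53 and 3.10 FPKM) and FOSL2-202 (5829 bases; 4.01, 8.91 and 3.23 FPKM), the shorter coding FOSL2-203 (4.77, 9.43 and 3.76 FPKM) and the noncoding FOSL2-204 of 393 bases. These transcripts overlap and share reads, so they are not separate evidence.

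FOS, the best known immediate early gene, had few reads (chromosome 14, 75278826 to 75282230, ENSG00000170345.10, plus strand). Its summed FPKM over 10 transcripts was 1.71 with siRNA 1 and 4.57 with siRNA 2, against 2.10 in the control, and its highest transcript, the short FOS-210, was at 0.285, 0.784 and 0.351 FPKM. The siRNA 2 library was highest, at 2.17-fold the control, and the siRNA 1 library lowest. The full-length FOS-201 held only 13.1, 33.0 and 20.8 read equivalents. Beside log2 ratios of -0.20 and 0.84, its counting intervals were wide, -1.74 to 0.45 with siRNA 1 and -0.07 to 1.63 with siRNA 2, so neither difference from the control was detectable at this depth. Between the siRNA libraries the interval was 0.41 to 2.43, above 0. With 5 FPKM added in place of 1, the log2 ratio with siRNA 2 was 0.43, short of 1.5-fold. All 10 FOS transcripts were higher with siRNA 2 than in the control (1.60-fold to 2.77-fold) and all 10 were lower with siRNA 1 (66.5% to 94.8%), but they share these few reads.

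FOSB, the FOS gene whose short splice form is stable and builds up with repeated stimulation in neurons, was the lowest of the 10 (chromosome 19, 45467995 to 45475179, ENSG00000125740.14, plus strand). Its summed FPKM over 13 transcripts was 1.01 with siRNA 1 and 1.42 with siRNA 2, against 0.995 in the control, and its highest transcript was at 0.126, 0.180 and 0.134 FPKM. Log2 ratios of 0.01 and 0.28 followed. FOSB-206 held 12.03, 14.8 and 11.2 read equivalents, and both counting intervals spanned 0 widely (-1.11 to 1.52 and -0.66 to 1.83). The listed retained-intron forms were FOSB-205 (0.0460, 0.0665 and 0.0533 FPKM) and FOSB-207 (0.126, 0.175 and 0.134 FPKM). They held 3.94 to 5.99 read equivalents each, too few to compare splice forms.

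**Figure D3:**
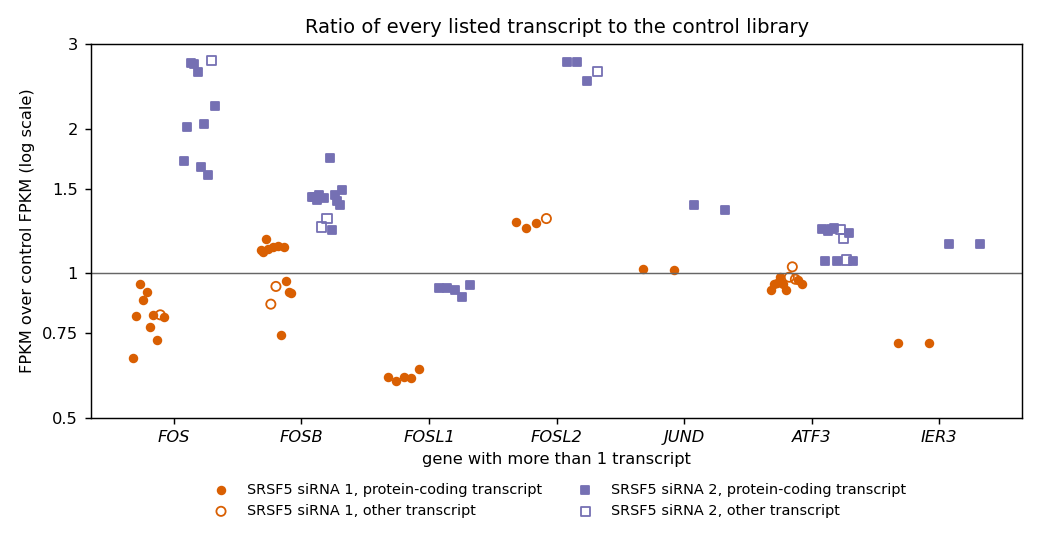
FPKM of every listed transcript over its FPKM in the control (y axis, log scale) for the 7 genes with more than 1 transcript, SRSF5 siRNA 1 and SRSF5 siRNA 2, filled for protein-coding and open for other transcript types. The FOSL2 transcripts lie at 2.51-fold to 2.76-fold with siRNA 2, the FOSL1 transcripts at 0.595-fold to 0.633-fold with siRNA 1, and with siRNA 2 the FOS transcripts are the most scattered, at 1.60-fold to 2.77-fold.

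The make-up of the FOS family by the highest protein-coding transcript differed accordingly. FOSL1 made up 74.1% of the family total with siRNA 1 and 68.3% with siRNA 2, against 85.2% in the control. FOSL2 made up 23.9% and 28.7%, against 13.1% in the control. FOS (1.43%, 2.39% and 1.23%) and FOSB (0.592%, 0.550% and 0.416%) together stayed below 3% in each library. The FOSL1 to FOSL2 ratio of FPKM was 3.10 with siRNA 1 and 2.38 with siRNA 2, against 6.49 in the control, so it was lower with both siRNAs. With siRNA 1 FOSL1 lay farther from its control value than FOSL2 did, and with siRNA 2 FOSL2 lay farther.

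ATF3, a bZIP protein induced by stress that pairs with JUN proteins, differed little (chromosome 1, 212565334 to 212620777, ENSG00000162772.17, plus strand). Its summed FPKM over 11 transcripts was 8.12 with siRNA 1 and 9.98 with siRNA 2, against 8.49 in the control, and its highest transcript, ATF3-205, was at 1.15, 1.5 and 1.21 FPKM. The log2 ratios were -0.06 and 0.21, and ATF3-202, with 58.2, 63.6 and 64.8 read equivalents, had counting intervals of -0.62 to 0.45 and -0.43 to 0.61. The 3 libraries thus could not be told apart at this depth. The 1 transcript listed for nonsense-mediated decay, ATF3-207, was at 0.766, 0.963 and 0.781 FPKM, within the range of the coding forms. The retained-intron form ATF3-208, at 0.421, 0.483 and 0.409 FPKM, lay below every coding form in each library.

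EGR1, a zinc finger transcription factor of the immediate early response outside the bZIP family, was the gene whose siRNA libraries lay closest together relative to their distance from the control (chromosome 5, 138465479 to 138469303, ENSG00000120738.8, plus strand). Its 1 transcript was at 7.47 FPKM with siRNA 1 and 6.83 FPKM with siRNA 2, against 10.3 FPKM in the control. Both siRNA libraries were lower, at 72.5% and 66.3% of the control. With siRNA 2 the log2 ratio just passed the 1.5-fold limit with 0.1 FPKM added in place of 1 and with equal non-mitochondrial totals (-0.59 in each). The log2 ratios were -0.42 and -0.53, a mean of -0.47 ± 0.08 (SD, n = 2), with a limma standard error of 0.43 and an unadjusted p of 0.29 in limma. It held 991, 884 and 1441 read equivalents, and the counting intervals of -0.58 to -0.35 and -0.72 to -0.47 lay below 0. The siRNA libraries thus did not overlap the control, and differed from each other by a log2 ratio of -0.11.

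IER3, an early response gene that affects cell survival, lies in the major histocompatibility region of chromosome 6 (30743199 to 30744548, ENSG00000137331.12, minus strand). Its summed FPKM was 1.66 with siRNA 1 and 2.66 with siRNA 2, against 2.32 in the control, and its highest transcript, IER3-201, was at 0.866, 1.39 and 1.21 FPKM. The siRNA 1 library was lowest, and the log2 ratios of -0.32 and 0.14 had counting intervals of -1.08 to 0.07 and -0.31 to 0.70. IER3 was the 1 gene of the 10 also listed on alternate scaffolds, as 5 further copies with higher values, which are not part of its values here. These copies had log2 ratios of -0.30 to -0.20 with siRNA 1 and 0.04 to 0.12 with siRNA 2, with the same signs as on chromosome 6. On the opposite strand, exons of IER3-AS1 (at most 0.0711 FPKM) and HCG20 (at most 0.0922 FPKM) overlap IER3, and HOOK2-224 (0.922, 0.801 and 1.03 FPKM) overlaps JUNB. HOOK2-224 stood far below JUNB in each library. Whether strand was used in counting is not stated, so reads of such pairs cannot be told apart here.

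**Figure D4:**
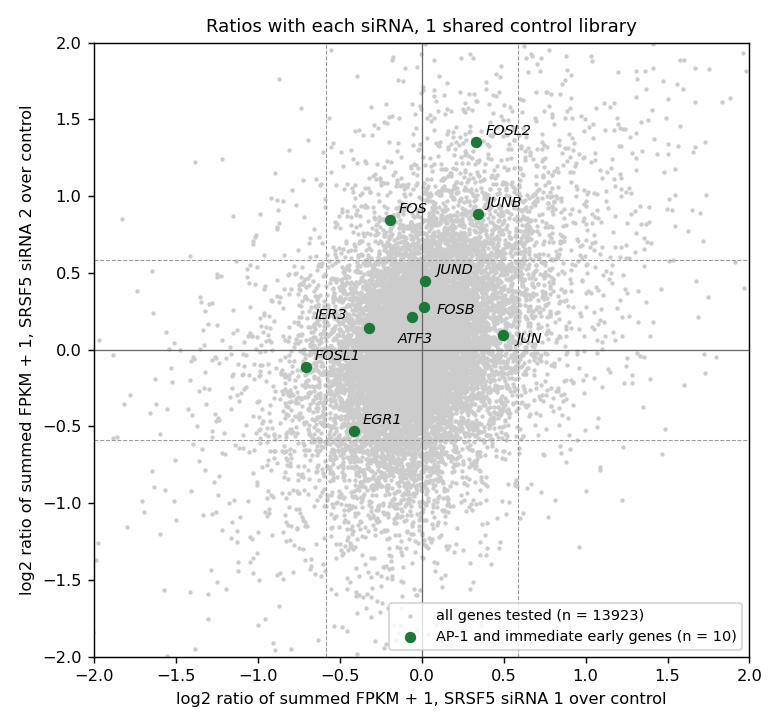
Log2 ratio of summed FPKM plus 1 with SRSF5 siRNA 1 (x axis) and SRSF5 siRNA 2 (y axis) over the same control library, for 13923 genes tested (grey, 96 of them outside the axes) and the 10 genes (green, named), with dashed lines at 1.5-fold. None of the 10 lies in the outer corners, where both ratios pass 1.5-fold, and FOSL2, JUNB and FOS lie above the upper line.

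The siRNA libraries were also set against each other, siRNA 2 over siRNA 1, with 1 library each and no test. Of the 10 genes 3 were at least 1.5-fold higher with siRNA 2, FOS (log2 ratio 1.04), FOSL2 (1.02) and FOSL1 (0.59), where 13.7% of all genes were, and 0 were at least 1.5-fold lower, where 10.5% were (either way 3 of 10, against 24.3%). FOS and FOSL2 were with siRNA 2 at least 1.5-fold above both other libraries, where 7.18% of all genes were. FOSL1 lay just past the limit of 0.585, and JUNB (0.54) just short of it. With library medians made equal, the FOSL1 ratio was 0.52, and with 5 FPKM added the FOS ratio was 0.51, both short of the limit. By any amount 8 of the 10 were higher with siRNA 2, where 55.8% of all genes were, and JUN (-0.40) and EGR1 (-0.11) were lower. The median was 0.44, against 0.07 over all genes tested. For JUN the counting interval of -0.57 to -0.34 lay below 0, and for EGR1 the interval of -0.26 to 0.00 reached 0. For FOSL1 (0.48 to 0.74), FOSL2 (1.01 to 1.21), JUNB (0.49 to 0.62), JUND (0.36 to 0.53) and IER3 (0.13 to 1.27) it lay above 0. For IER3 the interval covers the chromosome 6 copy alone. The log2 ratio of that copy was 0.46, and those of the copies on alternate scaffolds, which held more signal, were 0.24 to 0.42. The ratios of both siRNAs to the control share the control, but the comparison of siRNA 2 with siRNA 1 does not use it.

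Other genes of the pathway were read from 4 lists. Their values are summed FPKM, so they compare libraries within a gene and not one gene with another. Genes named for a call with 1 siRNA alone were named after their values were seen. The lists were chosen with earlier results of these data known, so their shares beside those of all genes are descriptions and not tests. Of 40 other immediate early genes 34 passed the filter, and 4 were at least 1.5-fold higher than the control with both siRNAs and 0 lower, where 3.19% and 1.47% of all genes were. They were CCN1, a matricellular protein (43.0 with siRNA 1 and 42.1 with siRNA 2, against 10.3 summed FPKM in the control), the kinase PLK2 (150, 163 and 57.1), CCN2 (2.69, 5.58 and 0.556) and the stress protein GADD45B (18.1, 24.8 and 7.44). Their log2 ratios were 1.96 and 1.93, 1.38 and 1.49, 1.25 and 2.08, and 1.18 and 1.61 in that order. The 3 others with the highest sums in the control were MYC (58.0, 111 and 74.0), the survival factor MCL1 (79.5, 106 and 73.7) and the mRNA decay factor ZFP36L1 (47.6, 68.2 and 40.4). With siRNA 2 alone 18 of the 34 (52.9%) were at least 1.5-fold higher, where 13.2% of all genes were, and 2 were lower, BTG2 and BTG3, where 10.1% were. With siRNA 1 alone 4 were higher, where 6.18% of all genes were, and 3 lower, PHLDA1, DUSP5 and KLF6, where 5.47% were. KLF6 was at 8.64 with siRNA 1 and 39.3 with siRNA 2, against 14.6 in the control. The median log2 ratio was -0.07 with siRNA 1 and 0.65 with siRNA 2. Limma called 0 of the 34, and 5 had an unadjusted p below 0.05. EGR2, EGR3, EGR4, NR4A3, ARC and GEM lay below the filter.

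Of 19 other bZIP genes whose proteins pair with JUN or FOS proteins, 14 passed the filter. With both siRNAs 1 was higher, JDP2, a JUN dimerization protein that holds back AP-1 (45.7 with siRNA 1 and 57.4 with siRNA 2, against 26.7 in the control; log2 ratios 0.75 and 1.07), and 0 were lower, where 3.19% and 1.47% of all genes were. With siRNA 2 alone 6 of the 14 were higher and 0 lower, against 13.2% and 10.1% of all genes. With siRNA 1 alone 1 was higher and 2 were lower, ATF2 and NFE2L3, against 6.18% and 5.47% of all genes. The highest sums in the control were those of NFE2L1 (325, 242 and 269), ATF4 (123, 184 and 135) and NFE2L2 (65.6, 58.5 and 85.7). BATF, BATF2, BATF3, MAF and BACH2 lay below the filter.

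All 29 listed kinases and promoter-bound factors upstream of the genes passed the filter on summed FPKM. MAPK10 did so with at most 4.07 read equivalents in its largest transcript. With both siRNAs 0 of the 29 passed 1.5-fold on the same side of the control, against 4.66% of all genes. Their median was -0.15 with siRNA 1 and 0.17 with siRNA 2. With siRNA 1 alone 5 were lower, RPS6KA3, MAP2K1, MAP2K6, ELK4 and MAPK13, and 0 higher, against 5.47% and 6.18% of all genes. With siRNA 2 alone 2 were higher, MAPK11 and MAPK14, and 1 was lower, MRTFB, against 13.2% and 10.1% of all genes. The kinases MAP2K2 (192, 205 and 205), MAP2K7 (70.4, 68.8 and 65.9) and MAP2K3 (54.0, 69.5 and 60.0) had the highest sums in the control.

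Of 22 genes known as AP-1 targets 19 passed the filter. With both siRNAs 3 were higher, the matrix metalloproteinases MMP13 (25.6 with siRNA 1 and 33.4 with siRNA 2, against 7.30 in the control), MMP10 (2.85, 9.16 and 0.827) and MMP1 (2.02, 6.09 and 0.694), and 1 was lower, the chemokine CXCL8 (5.93, 8.92 and 14.3), where 3.19% and 1.47% of all genes were. With siRNA 2 alone 10 of the 19 (52.6%) were at least 1.5-fold higher and 3 lower, CCND1, IVL and CXCL8, against 13.2% and 10.1% of all genes. With siRNA 1 alone 5 were higher and 4 lower, against 6.18% and 5.47% of all genes. IVL was higher with siRNA 1 and lower with siRNA 2 (14.5 and 3.24, against 6.29 in the control). SPRR1A was lower with siRNA 1 and higher with siRNA 2 (8.61 and 32.7, against 16.3). The median of the 19 was -0.08 with siRNA 1 and 0.97 with siRNA 2. The highest sums in the control among the others were those of CD44 (2088, 2052 and 1669), the heme oxygenase HMOX1 (429, 1299 and 616) and the cyclin CCND1 (306, 207 and 417). LORICRIN was listed at 0 in the 3 libraries. Limma called 0 of the bZIP partners, upstream genes and targets, with 1, 0 and 3 at an unadjusted p below 0.05.

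**Figure D5:**
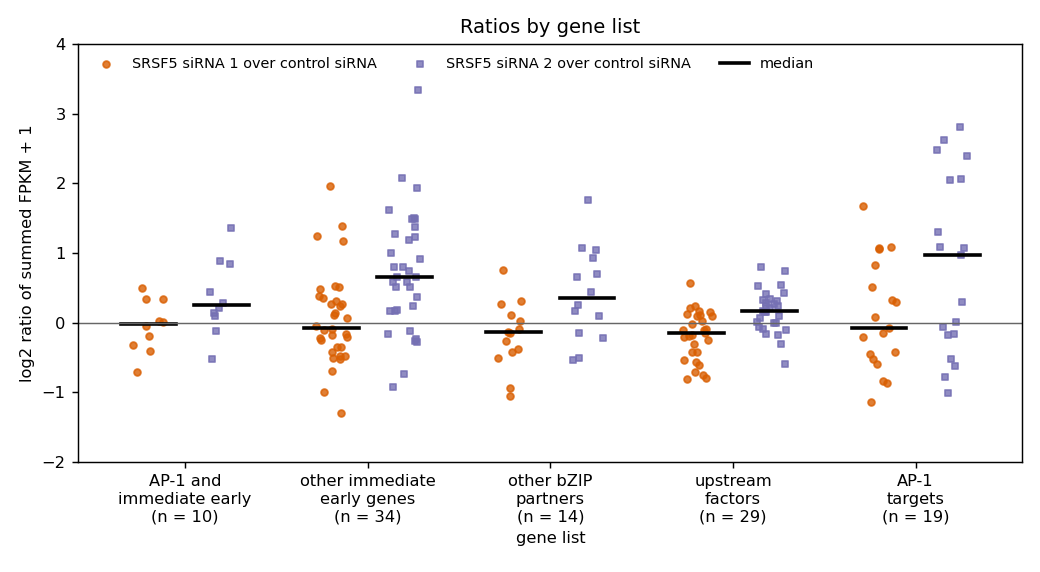
Log2 ratio of summed FPKM plus 1 (y axis) of every measured gene of the 5 lists (x axis) with SRSF5 siRNA 1 and SRSF5 siRNA 2 over the control siRNA library, 1 point per gene and a bar at the median. The medians with siRNA 2 lie above 0 in each list, up to 0.97 for AP-1 targets, and those with siRNA 1 lie between -0.15 and -0.02.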

How the data were processed

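HaCaT RNA was isolated with an RNeasy kit and sequenced after SMARTer library preparation, per the labels' protocols. The authors deposited FPKM per transcript, beside exons, strand, type and length, per the file headers. The submitters' processing notes list the builds GRCm38, mm10 and GRCh38.p12, giving none a role. Coordinates follow the deposited files. For the aligner and counter, names were not given in the sources used here. Each FPKM times its length came out as a whole number of steps for 100% of values (tolerance 0.05), taken as bases, and 100 bases as a read equivalent. Of 247012 transcripts 20343 on scaffolds or duplicate Y copies were left out. Of 60506 genes 60214 matched the symbol table by identifier. LORICRIN, listed under its older symbol LOR, was found that way. Ratios are log2(summed FPKM + 1), which understates differences of low genes, for the 13923 genes with a mean of at least 1 FPKM. limma 3.58.1 (R 4.3.3) was fitted with a trend over all 3 libraries, both siRNAs against the control. A run on simulated data was a check of the code, and does not tell how small a difference could be called here. Python 3.11.15 did the rest. Nothing says that separate cultures were used beyond the transfections, so the spread behind the p-values is that of these samples alone and may be technical. Alternatives were other pseudocounts, filters, gene levels, scalings and limma settings, and leaving out either siRNA. The members and lists were chosen with earlier results of these data known. The named genes are the 10 members, SRSF5, of each list up to 6 genes called with both siRNAs and the 3 others highest in the control, and the 3 genes nearest to JUND.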

Additional observations from a re-analysis of the deposited data

Results flagged for a closer look

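Values outside the report's comparisons were found for IER3. The 5 copies of the gene listed on alternate scaffolds of chromosome 6 held signal above that of the chromosome 6 copy in every library. The highest copy had a summed FPKM of 4.35 with siRNA 1, 5.31 with siRNA 2 and 5.14 in the control, against 1.66, 2.66 and 2.32 on chromosome 6. The other 4 copies were identical to each other, at 3.38, 4.85 and 4.38. The placement of reads that match more than 1 copy is not stated, and its part in the IER3 values was not tested.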

How the results depend on the processing

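For the 10 genes 216 ratios were recomputed under 8 alternatives (pseudocount, filter, gene level, scaling). Of these, 207 moved by less than the spread and 9 by more. That spread was the SD between the 2 siRNAs for ratios to the control, and the counting interval for siRNA 2 over siRNA 1. It was wide for FOS, whose siRNA 2 ratio fell from 0.84 to 0.43 with 5 FPKM added and counted as less. Of 30 series 0 changed sign, but pseudocounts, filters and the mean over transcripts cannot change a sign, and filters leave ratios as they were. In each alternative that kept both siRNAs, 0 of the 10 genes were at least 1.5-fold from the control in both, and 0 passed limma. With 1 siRNA alone the count was 1 to 3 of the 10, and 1623 to 3244 over all genes, against 649 with both. The count over all genes was 992 with a pseudocount of 0.1 FPKM, 269 with one of 5 FPKM, 376 with the highest transcript and 277 with the mean over transcripts. Between siRNA 2 and siRNA 1, 1 of the 10 (FOSL2) was 1.5-fold apart in place of 3 with a pseudocount of 5 FPKM, with the highest transcript (8 of the 10 passed the filter) and with the mean over transcripts (7 passed). With a pseudocount of 0.1 FPKM there were 4, IER3 (log2 0.65) being added, and EGR1 passed 1.5-fold with siRNA 2. Over all genes 1780 (pseudocount of 5 FPKM), 1777 (mean over transcripts) and 4253 (pseudocount of 0.1 FPKM) were apart, in place of 3378. FOSL1 left that list when libraries were scaled to equal medians or to equal non-mitochondrial totals. The robust limma fit called 3 genes. The causes were not tested. Limma without either siRNA library has no residual degrees of freedom and was not run. No paired analysis was possible because the control has 1 library and its label gives no replicate number. Depth limits FOS, FOSB, ATF3 and IER3, whose largest transcripts held at most 71.0 read equivalents in a library.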
